A study of Homo sapiens with 12 samples.

Results

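The genes described here are the long intergenic non-coding RNA (LINC) genes that were expressed in SKBR3 or MDA-MB-453 cells, 2 HER2 breast cancer cell lines. A gene belonged to the set when its GENCODE symbol was LINC followed by digits and its mean level reached 0.5 CPM (the count of a gene as a part of the total of its library, scaled to 1000000) over the 3 libraries of at least 1 of the 4 groups. Of 2286 genes with such a symbol, 256 (11.2%) reached this level, out of 62696 genes counted. The level itself chose the genes, so their levels are a description. Just inside the limit lay LINC01447 at 0.511 CPM and LINC00842 at 0.518 CPM, and just outside it lay LINC00836 at 0.494 CPM and LINC01508 at 0.488 CPM. The limit was reached in 1 group only by 26 genes, 13 of them only in TWEAK-treated SKBR3 cells.

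LINC genes are named by a running number because most have no settled function. They are transcribed by RNA polymerase II, are usually spliced and polyadenylated, and are known for low levels and for being switched on in a narrow range of cell types. Their transcription often runs beside that of a nearby protein-coding gene, and some begin back to back with one. TWEAK is a ligand of the tumour necrosis factor superfamily which binds the receptor Fn14 and is known to activate NF-κB and AP-1 transcription factors.

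The study asked which transcriptional changes TWEAK brings about in breast cancer lines of several subtypes, and poly-A RNA-seq of the 2 HER2 lines is analysed here. Each line had 3 untreated (UT) and 3 TWEAK-treated replicates. Cells in DMEM with serum were starved in Opti-MEM for 8 h and then given 10 ng/ml TWEAK for 48 h, with TWEAK renewed after 24 h. The labels carry the same growth text for untreated samples and do not say what was added to them. Both lines are long-established cancer lines and each stands for 1 tumour, so a difference between them is a difference between these cultures. The study's methods describe cell line experiments as 3 independent runs on different days. Library totals ran from 24773003 to 35208304 counts. ERBB2, the receptor gene that defines this subtype, lay between 7120 and 7606 CPM in SKBR3 libraries and between 882 and 946 CPM in MDA-MB-453 libraries. Of 5 markers of leukocytes, endothelium and fibroblasts, the highest value in any library was 0.474 CPM. TWEAK replicate 2 stood apart from replicates 1 and 3 in both lines. The χ2 per degree of freedom over all genes between it and the other TWEAK libraries was 21.1 and 23.8 in SKBR3, against 2.22 between replicates 1 and 3. In MDA-MB-453 the values were smaller, 10.2 and 5.31 against 2.85. Among untreated SKBR3 libraries, replicate 3 gave 5.74 and 4.27, against 1.78 between replicates 1 and 2.

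As a group the LINC genes took a small share of each library. Their summed counts made up 0.0732 to 0.0810% of SKBR3 libraries and 0.0549 to 0.0580% of MDA-MB-453 libraries, and the 2 lines did not overlap. In SKBR3, the untreated libraries lay at 0.0796, 0.0805 and 0.0810% and the TWEAK-treated ones at 0.0732, 0.0775 and 0.0790%, all 3 below the lowest untreated value. In MDA-MB-453, the untreated libraries lay at 0.0559, 0.0578 and 0.0580% and the TWEAK-treated ones at 0.0549, 0.0555 and 0.0569%, and the groups overlapped. In every group 86 of the 256 stayed under 1 CPM, 170 reached 1 CPM in some group, and 28 reached 10 CPM in some group. In bulk RNA, fewer cells with a transcript and less of it per cell cannot be told apart.

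By annotation, 255 of the genes are of the lncRNA type and 1 is a transcribed pseudogene. The median exonic length was 3963 bases (range 461 to 33198), the canonical transcript had a median of 4 exons, and 29 genes had 1 exon. The name intergenic does not hold for all of them. In the annotation, 32 lie inside or across the body of a protein-coding gene, 112 lie within 10000 bases of one, and the median distance was 16793 bases. Exonic bases were shared with another gene by 110 of the genes, 41 on the same strand and 93 on the opposite strand. The strand setting of the counting is not given in the sources used here, so reads of such pairs may not be separated. In 10 of the genes, among them LINC01123, LINC01106 and LINC01001, over 50% of 64-base stretches also occur in transcripts of other genes, and their counts are uncertain.

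RefSeq sequences at the starts of 6 of the genes are shown because the results below turn on them. They are promoters on GRCh38.p14, 250 bases before to 50 after the RefSeq start, read 5′ to 3′ on the strand of the gene, with CpG dinucleotides in capitals. LINC01315 (chr22:42369159-42369458, minus strand) and LINC02015 (chr3:177816615-177816914, plus strand) are the genes called higher with TWEAK in both lines. LINC01135 (chr1:58784901-58785200, plus strand), which RefSeq lists as JUN-DT, starts beside JUN. LINC01978 (chr17:79919107-79919406, plus strand) fell with TWEAK in SKBR3 and was near 0 in MDA-MB-453. LINC00662 (chr19:27793891-27794190, minus strand) and LINC02987 (chr19:27793181-27793480, plus strand) are overlapping genes of SKBR3. The RefSeq start lies 767 bases past the GENCODE start in LINC01135, and 0 to 82 bases past it in the other 5.
LINC01315: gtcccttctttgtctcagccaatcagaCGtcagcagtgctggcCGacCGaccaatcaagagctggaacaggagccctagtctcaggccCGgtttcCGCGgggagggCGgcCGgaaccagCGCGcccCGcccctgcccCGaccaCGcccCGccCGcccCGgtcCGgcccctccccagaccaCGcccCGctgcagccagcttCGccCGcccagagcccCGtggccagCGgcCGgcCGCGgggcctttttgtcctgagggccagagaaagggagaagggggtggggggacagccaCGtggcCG
LINC02015: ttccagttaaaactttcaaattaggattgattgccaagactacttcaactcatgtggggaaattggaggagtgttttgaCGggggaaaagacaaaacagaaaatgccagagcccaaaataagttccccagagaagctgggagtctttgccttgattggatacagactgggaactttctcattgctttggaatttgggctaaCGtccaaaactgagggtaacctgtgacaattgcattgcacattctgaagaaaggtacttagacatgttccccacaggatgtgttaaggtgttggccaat
LINC01135: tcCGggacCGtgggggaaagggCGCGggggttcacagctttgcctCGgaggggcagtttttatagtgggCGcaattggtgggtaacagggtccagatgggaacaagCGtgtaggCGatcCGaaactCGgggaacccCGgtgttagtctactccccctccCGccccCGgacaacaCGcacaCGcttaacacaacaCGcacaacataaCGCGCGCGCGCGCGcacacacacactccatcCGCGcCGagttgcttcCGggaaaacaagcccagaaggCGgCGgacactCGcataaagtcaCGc
LINC01978: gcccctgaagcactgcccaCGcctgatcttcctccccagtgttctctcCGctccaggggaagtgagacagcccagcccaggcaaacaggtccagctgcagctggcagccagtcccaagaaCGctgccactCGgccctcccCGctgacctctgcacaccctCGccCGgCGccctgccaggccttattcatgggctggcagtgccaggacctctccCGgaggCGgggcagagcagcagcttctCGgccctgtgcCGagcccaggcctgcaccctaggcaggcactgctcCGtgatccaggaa
LINC00662: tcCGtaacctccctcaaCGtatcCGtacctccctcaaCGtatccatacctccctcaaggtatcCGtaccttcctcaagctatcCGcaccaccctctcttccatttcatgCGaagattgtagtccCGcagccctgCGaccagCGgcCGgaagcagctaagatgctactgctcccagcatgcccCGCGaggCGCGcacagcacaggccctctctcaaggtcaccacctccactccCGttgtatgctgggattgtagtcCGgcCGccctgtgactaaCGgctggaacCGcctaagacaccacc
LINC02987: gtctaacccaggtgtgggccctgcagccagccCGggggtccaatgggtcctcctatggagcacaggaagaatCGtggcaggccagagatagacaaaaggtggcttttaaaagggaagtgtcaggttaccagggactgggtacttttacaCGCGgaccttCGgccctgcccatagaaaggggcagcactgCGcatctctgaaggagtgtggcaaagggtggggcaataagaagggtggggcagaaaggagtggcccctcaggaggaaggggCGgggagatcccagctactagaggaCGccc

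The 2 promoters of the genes called in both lines differ in composition. The LINC01315 promoter holds 28 CpG dinucleotides at 72.7% GC, and the LINC02015 promoter holds 2 at 42.7% GC, against medians of 14 and 58.7% over the 35116 RefSeq promoters. That of LINC01135 holds 31 CpG dinucleotides, among them the uninterrupted run in capitals. A promoter was found for 172 of the 256 genes, in 131 with its RefSeq start within 1000 bases of the GENCODE start. The 172 had a median of 11 CpG dinucleotides and 58.3% GC. The NF-κB letters GGGA, any 2 bases and TTCC, read on either strand, occurred in 2 of the 172 (1.16%, against 1.61% of all promoters). The looser letters GGGA, any 3 bases and TCC, which include every match of the first, matched in 4 (2.33%, against 5.07%). The AP-1 letters TGANTCA matched in 18 (10.5%, against 7.71%). Of the 17 genes called in SKBR3 below, 9 had a promoter, and in those 9 windows none of these letters occurred, which says nothing of binding elsewhere.

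In a group of the line, untreated or TWEAK-treated, the limit of 0.5 CPM was reached in both lines by 93 genes (36.3%), in SKBR3 only by 111 (43.4%) and in MDA-MB-453 only by 52 (20.3%). Of 12998 protein-coding genes at this limit, 85.2% reached it in both lines, 9.72% in SKBR3 only and 5.09% in MDA-MB-453 only. The difference between untreated lines was fitted with the edgeR quasi-likelihood test over all 12 libraries with Benjamini-Hochberg adjustment at 0.1. Among 255 genes tested, SKBR3 had the higher level in 142 and MDA-MB-453 in 77, 85.9% in all. The same test called 84.2% of all genes, 43.5% higher in SKBR3 and 40.7% higher in MDA-MB-453, so calling most LINC genes is not particular to them. The untreated libraries of the lines did not overlap in 134 LINC genes that were higher in SKBR3 and 79 that were lower, and in 39.8% and 44.8% of all genes, 84.6% in all. The limit kept genes that were high in either line, and these calls therefore describe the set and were not used as a test of it.

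**Figure D1:**
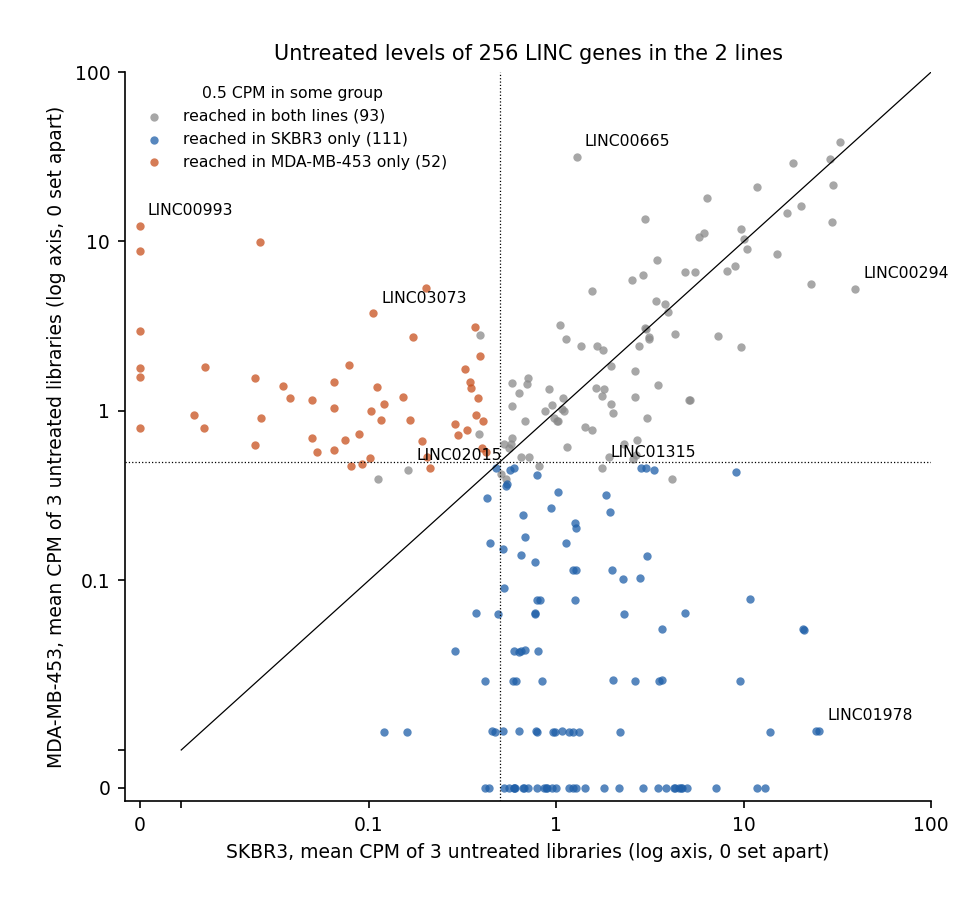
Mean CPM of the 3 untreated libraries in SKBR3 (horizontal) and MDA-MB-453 (vertical) for the 256 LINC genes, on log axes with 0 set apart, and with dotted lines at 0.5 CPM and a solid line of equal level. Colours mark genes that reached the limit, untreated or with TWEAK, in both lines (93), in SKBR3 only (111) or in MDA-MB-453 only (52), and many of the genes of 1 line lie at or near 0 in the other.

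The highest levels per length of exonic sequence, merged over all annotated transcripts of a gene, were reached by different genes in the 2 lines. On the scale of CPM per kb of exonic sequence, LINC00294 led in untreated SKBR3 at 11.9 and LINC01978 followed at 10.2, against medians over the set of 0.299 in SKBR3 and 0.147 in MDA-MB-453. In untreated MDA-MB-453, LINC00993 led at 22.9 CPM per kb, followed by LINC02233 at 8.22 and LINC02593 at 6.99. By CPM alone, the 5 highest genes of SKBR3 were LINC00294, LINC01128, LINC00963, LINC00641 and LINC01278, and those of MDA-MB-453 were LINC01128, LINC00665, LINC01278, LINC02593 and LINC00963. LINC01128, LINC00963 and LINC01278 stand in both lists. LINC01278 did not differ between the untreated lines beyond the replicate spread, at 28.8 ± 1.93 CPM in SKBR3 and 30.7 ± 1.96 CPM in MDA-MB-453 (SD, n = 3 each; edgeR adjusted p = 0.866).

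In SKBR3, a group of genes was called higher where the other line was near 0, and only some of them were high. In 78 genes called higher in SKBR3, each untreated MDA-MB-453 library held 3 counts or fewer, and their median untreated SKBR3 level was 0.975 CPM. Taking 3 counts per library as the floor, they were at least 1.04-fold to at least 216-fold higher in SKBR3. The limit kept genes that were high in 1 line only, so this count describes the set, and the share of all genes is not given. LINC01978 (chr17:79919310-79926018) lay at 24.4, 25.9 and 25.5 CPM in the 3 untreated SKBR3 libraries and had 1, 0 and 0 counts in the untreated MDA-MB-453 libraries. Its neighbour on the opposite strand, LINC01979, overlaps 23.6% of its exonic bases and was at 0.937 CPM in SKBR3. LINC00662 (chr19:27681072-27794005) lay at 23.0, 25.6 and 24.6 CPM and LINC02987 (chr19:27793431-27984984) at 14.7, 13.6 and 13.1 CPM in untreated SKBR3, and each had 1 count in total over the untreated MDA-MB-453 libraries. These genes run away from each other on opposite strands and overlap by 575 bases at their starts. LINC01234 (21.2, 21.1 and 20.4 CPM) and LINC00649 (20.8, 21.3 and 19.9 CPM) likewise had 4 counts each over the untreated MDA-MB-453 libraries. LINC00857, which was chosen after its values were seen, had no count there, and at 11.7 ± 0.498 CPM (SD, n = 3) it was at least 100.5-fold higher in SKBR3, taking 3 counts per library as the floor.

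Among genes with over 3 counts in some library of the lower line, the widest differences towards SKBR3 were those of LINC01503, LINC00997, LINC01977, LINC02913 and LINC00885. LINC01503 (chr9:129332300-129359549) was at 10.8 ± 0.779 CPM in SKBR3 and 0.0776 ± 0.103 CPM in MDA-MB-453 (SD, n = 3 each), a log2 difference of 7.15 (SE 0.31, edgeR adjusted p = 4.56e-13). LINC02913, 7394 bases away on the same strand, was at 9.14 ± 0.694 and 0.435 ± 0.0209 CPM, a log2 difference of 4.49 (SE 0.21). The level of LINC01503 in MDA-MB-453 rests on 5, 0 and 1 counts, and without untreated replicate 1 of that line its log2 difference was 8.92. LINC00997, LINC01977 and LINC00885 differed by 4.82, 4.49 and 4.17 on the log2 scale, and LINC01977 by 5.32 without untreated MDA-MB-453 replicate 2.

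A smaller group was called higher in MDA-MB-453 where SKBR3 was near 0. In 24 genes called higher there, each untreated SKBR3 library held 3 counts or fewer. This count too describes the set and is given without the share of all genes. LINC00993 (chr10:37248118-37315801) lay at 13.5, 11.5 and 12.1 CPM in untreated MDA-MB-453 and had no count in untreated SKBR3, at least 102-fold. It lies 15551 bases from ANKRD30A on the same strand, a gene known as a differentiation antigen of breast epithelium, which was at 58.0 CPM in untreated MDA-MB-453 and 0.0481 CPM in untreated SKBR3. LINC02233 (chr4:159665833-159777828) lay at 9.78, 8.18 and 8.49 CPM against no count, at least 73.0-fold. Both were singled out after their values were seen. Among genes with over 3 counts in some SKBR3 library, the widest differences were those of LINC03073, LINC00504, LINC00665, LINC02804 and LINC01252. LINC00665 (chr19:36259540-36331770) was at 31.6 ± 1.19 CPM in MDA-MB-453 and 1.28 ± 0.291 CPM in SKBR3 (SD, n = 3 each), 24.7-fold higher in MDA-MB-453 (log2 difference, SKBR3 minus MDA-MB-453, -4.50, SE 0.12, edgeR adjusted p = 4.84e-16). LINC03073, LINC00504, LINC02804 and LINC01252 had log2 differences of -5.04, -4.56, -4.43 and -4.33. In SKBR3, LINC02804 held 1, 4 and 1 counts and LINC01252 held 1, 4 and 0, and without untreated SKBR3 replicate 2 their log2 differences were -5.38 and -5.89.

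The direction of neighbouring protein-coding genes is given as a count beside the share of all protein-coding genes, and the difference was not tested. Of the 104 distinct nearest protein-coding genes tested beside LINC genes higher in SKBR3, 65 were also higher in SKBR3 (62.5%, against 44.5% of all 13157 protein-coding genes tested) and 28 were lower. Beside LINC genes higher in MDA-MB-453, 33 of 53 distinct neighbours were also higher in MDA-MB-453 (62.3%, against 43.0%). Not every pair went in the same direction. LINC03073 lies 769 bases from FBXL18, and FBXL18 was higher in SKBR3, at 103 CPM against 54.2 CPM. TBC1D16, 6325 bases from LINC01978, was not called, at 241 and 263 CPM. Pairs of the LINC genes also lie close together. There were 15 pairs at most 100000 bases apart, 7 of them overlapping, 5 of these on opposite strands.

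With TWEAK, the LINC genes of SKBR3 changed in small numbers. Of 206 tested, 12 rose and 5 fell (edgeR quasi-likelihood test, Benjamini-Hochberg adjusted p of at most 0.1 over all genes). That is 8.25% of those tested, against 10.4% of all 15661 genes, with 5.83% higher against 6.60% and 2.43% lower against 3.82%. The share is near the background, so these genes as a set did not stand out. The median log2 fold change was -0.07 over the 206 and -0.01 over all genes tested. In all 17 called genes the 3 TWEAK-treated libraries lay wholly above or below the 3 untreated ones. Counting uncalled ones as well, this was so for 19 LINC genes that were higher and 35 that were lower, and for 11.1% and 16.5% of all genes, 27.6% in all. The limit counted TWEAK-treated levels too, and 5 of the called genes reached it in SKBR3 with TWEAK only. These were LINC02015, LINC02328, LINC01447, LINC02814 and LINC00937, and their rises describe genes let in by the level with TWEAK. Of the 187 tested that reached 0.5 CPM in untreated SKBR3, 7 rose and 5 fell, against 6.60% and 3.82% of all genes. The share that rose was thus lower without the genes let in by TWEAK. Among genes without exonic bases shared with another gene, 7 of the 12 that rose remained. The split depended on the scaling. With offsets for GC content and length, 12 rose and 14 fell. TWEAK replicate 2 bore on it as well, since 19 rose and 7 fell without it. Without untreated replicate 1, 7 rose and 2 fell, and the number that fell was also 2 without TWEAK replicate 1 and 1 without untreated replicate 2 or 3.

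**Figure D2:**
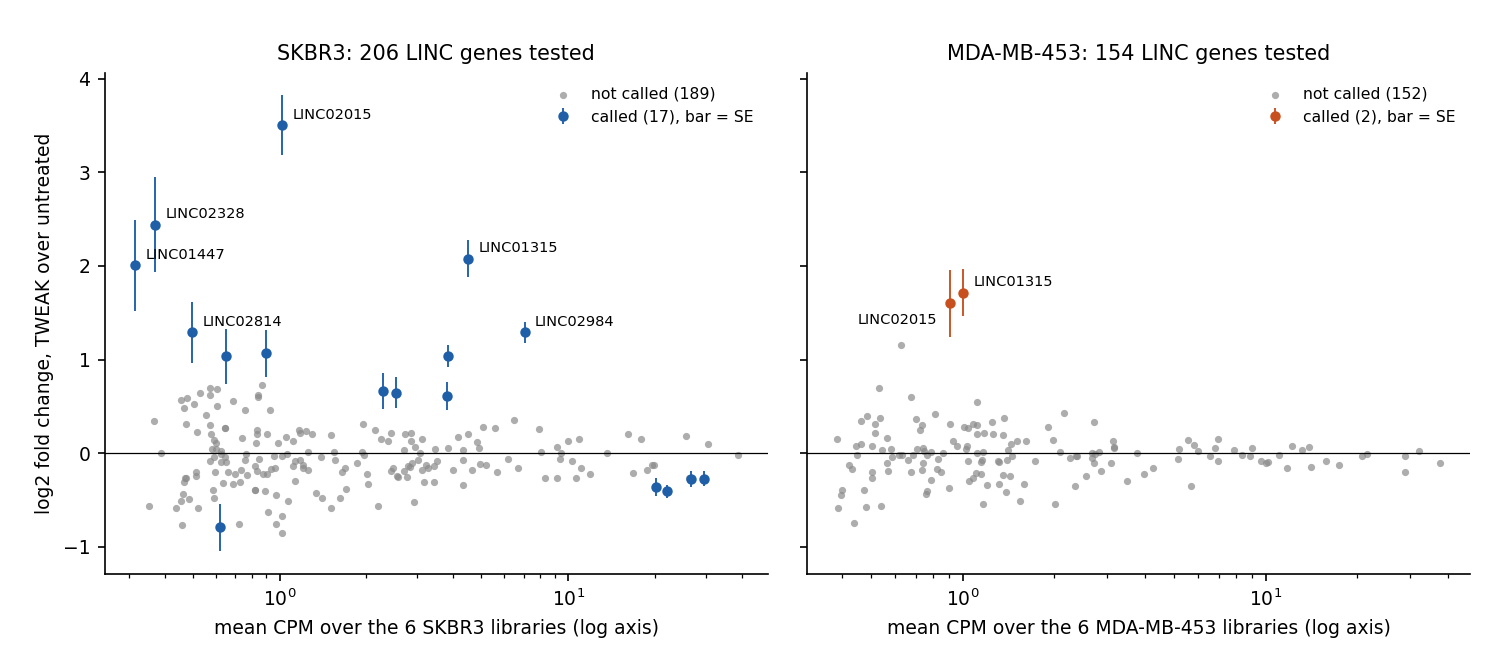
Log2 fold change with TWEAK (vertical) against mean CPM over the 6 libraries of the line (horizontal, log axis) for the LINC genes tested, 206 in SKBR3 and 154 in MDA-MB-453. Coloured points with SE bars are genes called at an adjusted p of 0.1, 17 and 2 in the lines, and the genes that rose have means under 10 CPM.

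Among the 22 LINC genes at 10 CPM or more in a group of SKBR3, none rose, 4 fell, and log2 fold changes ran from -0.41 to 0.20. At an unadjusted p under 0.05, 1 of the 22 was higher and 9 were lower, and DESeq2 called none higher and 3 lower. Of all 9311 genes at that level, 6.91% rose and 4.61% fell. The other 13 called genes had group means under 10 CPM in SKBR3. A gene that was low in untreated cells could enter the set by its level with TWEAK, so the low untreated levels of those that rose are in part set by how the genes were chosen. The genes that rose are described first and then those that fell.

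LINC02015 (chr3:177816865-177899224, plus strand, 3 exons) had the largest log2 fold change. It was under 0.5 CPM untreated in both lines and entered the set by its level with TWEAK. It lay at 0.244, 0.161 and 0.0794 CPM in untreated SKBR3 and at 2.11, 1.61 and 1.94 CPM with TWEAK, from 7, 4 and 2 counts to 55, 43 and 49. All 3 TWEAK-treated libraries were several times above the highest untreated one. The log2 fold change was 3.51 (SE 0.32, edgeR adjusted p = 3.91e-05). Its nearest protein-coding gene, KCNMB2, is 373708 bases away and was too low to be tested. LINC00578, 49485 bases upstream on the same strand, was at 0.0801 CPM untreated and 0.218 CPM with TWEAK.

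LINC01315 (chr22:42364387-42369290, minus strand, 2 exons) was the gene with the third largest change and a level several times higher. It lay at 1.82, 2.29 and 1.15 CPM in untreated SKBR3 and at 6.83, 8.26 and 6.64 CPM with TWEAK, so the groups did not come near each other. The log2 fold change was 2.08 (SE 0.20, edgeR adjusted p = 5.17e-05). Its nearest protein-coding gene is NFAM1, which encodes a membrane receptor of immune cells with an activation motif. NFAM1 lies 11117 bases upstream on the same strand, and in SKBR3 it went from 0.524, 0.362 and 0.714 CPM to 0.959, 1.23 and 0.988 CPM (log2 fold change 1.02, SE 0.28, edgeR adjusted p = 0.0547). That call was lost with DESeq2 and without untreated replicate 1 or 2. Whether some LINC01315 reads came from transcripts that began in NFAM1 was not tested.

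LINC02328 (chr14:85911438-86161539) and LINC01447 (chr7:47608465-47629893) rose from a few counts. LINC02328 had 4, 0 and 5 counts in untreated SKBR3 and 16, 16 and 17 with TWEAK (log2 fold change 2.44, SE 0.51, edgeR adjusted p = 0.0126), and without untreated replicate 3 the log2 fold change was 3.04. LINC01447 had 7, 1 and 2 counts and then 12, 16 and 12 (2.01, SE 0.48, edgeR adjusted p = 0.0283), and its call was lost without untreated replicate 2 or 3 (adjusted p = 0.127 and 0.125). Without untreated replicate 1 its log2 fold change was 3.03. Both were under 0.5 CPM over the 6 libraries and are named because the list of risen genes is short, after their values were seen, as are LINC02814 and LINC01270. In SKBR3, LINC02328 and LINC01447 reached 0.5 CPM with TWEAK only, so their calls are a description. LINC01447 lies 25907 bases from TNS3, which encodes a focal adhesion protein. TNS3 rose too, from 68.0, 71.2 and 70.5 CPM to 162, 131 and 169 CPM (log2 fold change 1.17, SE 0.09, edgeR adjusted p = 7.00e-06).

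LINC02984 (chr8:53493523-53524336) and LINC02236 (chr5:6765891-6833120) rose at levels of several CPM with narrow spreads. LINC02984 lay at 4.36, 3.62 and 4.48 CPM untreated and 10.2, 9.19 and 10.5 CPM with TWEAK (log2 fold change 1.29, SE 0.11, edgeR adjusted p = 2.95e-05). LINC02236 lay at 2.51, 2.70 and 2.46 CPM and then at 5.06, 5.04 and 5.25 CPM (1.04, SE 0.12, edgeR adjusted p = 0.000247). The replicates of LINC02236 within either group differed by far less than the groups did. Its neighbour TENT4A, a non-canonical poly(A) polymerase 8847 bases away, rose by a smaller amount, 0.30 on the log2 scale (SE 0.06, edgeR adjusted p = 0.0111). ATP6V1H, the protein-coding gene nearest to LINC02984, lies 191207 bases off and did not pass (-0.05, SE 0.07, adjusted p = 0.754).

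LINC02814 (chr1:229087114-229205428), LINC02348 (chr15:101602786-101614531) and LINC00937 (chr12:8295986-8396803) were lower and rose by about 1 to 1.3 on the log2 scale. In SKBR3, LINC02814 (0.290 CPM untreated) and LINC00937 (0.439 CPM untreated) reached 0.5 CPM with TWEAK only, so their calls are a description. LINC02814 went from 10, 9 and 4 counts to 17, 19 and 19, with a log2 fold change of 1.29 (SE 0.33, edgeR adjusted p = 0.0363), and its call was lost without untreated replicate 3 (adjusted p = 0.125) and with DESeq2 (adjusted p = 0.158). LINC02348 went from 14, 18 and 14 counts to 27, 37 and 30, with 1.07 (SE 0.25, edgeR adjusted p = 0.0244), and its call was lost without untreated replicate 1 (adjusted p = 0.129). LINC00937 went from 8, 11 and 15 counts to 23, 24 and 21, with 1.03 (SE 0.30, edgeR adjusted p = 0.0636). Its call was lost without TWEAK replicate 1 or 3 or untreated replicate 1 or 2 (adjusted p = 0.111 to 0.269) and with DESeq2 (adjusted p = 0.235), and 10.1% of its exonic bases are shared with another gene on the same strand.

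The smallest rises passed at levels of 1.8 to 3.1 CPM in untreated cells. LINC00824 (chr8:128405269-128564679), whose nearest protein-coding gene MYC is 662318 bases away, lay at 1.29, 2.09 and 2.02 CPM and then at 2.61, 2.76 and 2.92 CPM (log2 fold change 0.66, SE 0.19, edgeR adjusted p = 0.0683). LINC01135 (chr1:58784384-58901109), the divergent transcript of JUN, lay at 2.06, 1.61 and 2.34 CPM and then at 3.30, 2.91 and 3.0 CPM (0.65, SE 0.17, edgeR adjusted p = 0.0394). JUN itself, an AP-1 subunit whose start is 336 bases off on the other strand, did not pass, with a log2 fold change of 0.13 (SE 0.09, adjusted p = 0.502). LINC01270 (chr20:50292709-50315488) lay at 2.90, 3.54 and 2.74 CPM and then at 4.18, 4.15 and 5.33 CPM (0.61, SE 0.15, edgeR adjusted p = 0.0341), and 31.5% of its exonic bases lie opposite LINC01271. The calls were lost without TWEAK replicate 1 or 3 or untreated replicate 1 or 3 for LINC00824 (adjusted p = 0.103 to 0.249, and 0.135 with DESeq2), without TWEAK replicate 1 or untreated replicate 1 or 2 for LINC01135 (adjusted p = 0.122 to 0.180) and without TWEAK replicate 3 or untreated replicate 1 or 3 for LINC01270 (adjusted p = 0.112 to 0.143). The nearest protein-coding gene of LINC01270 is CEBPB, a transcription factor of inflammatory genes 100041 bases away. It rose from 129, 123 and 139 CPM to 201, 208 and 195 CPM (log2 fold change 0.66, SE 0.07, edgeR adjusted p = 8.57e-05).

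**Figure D3:**
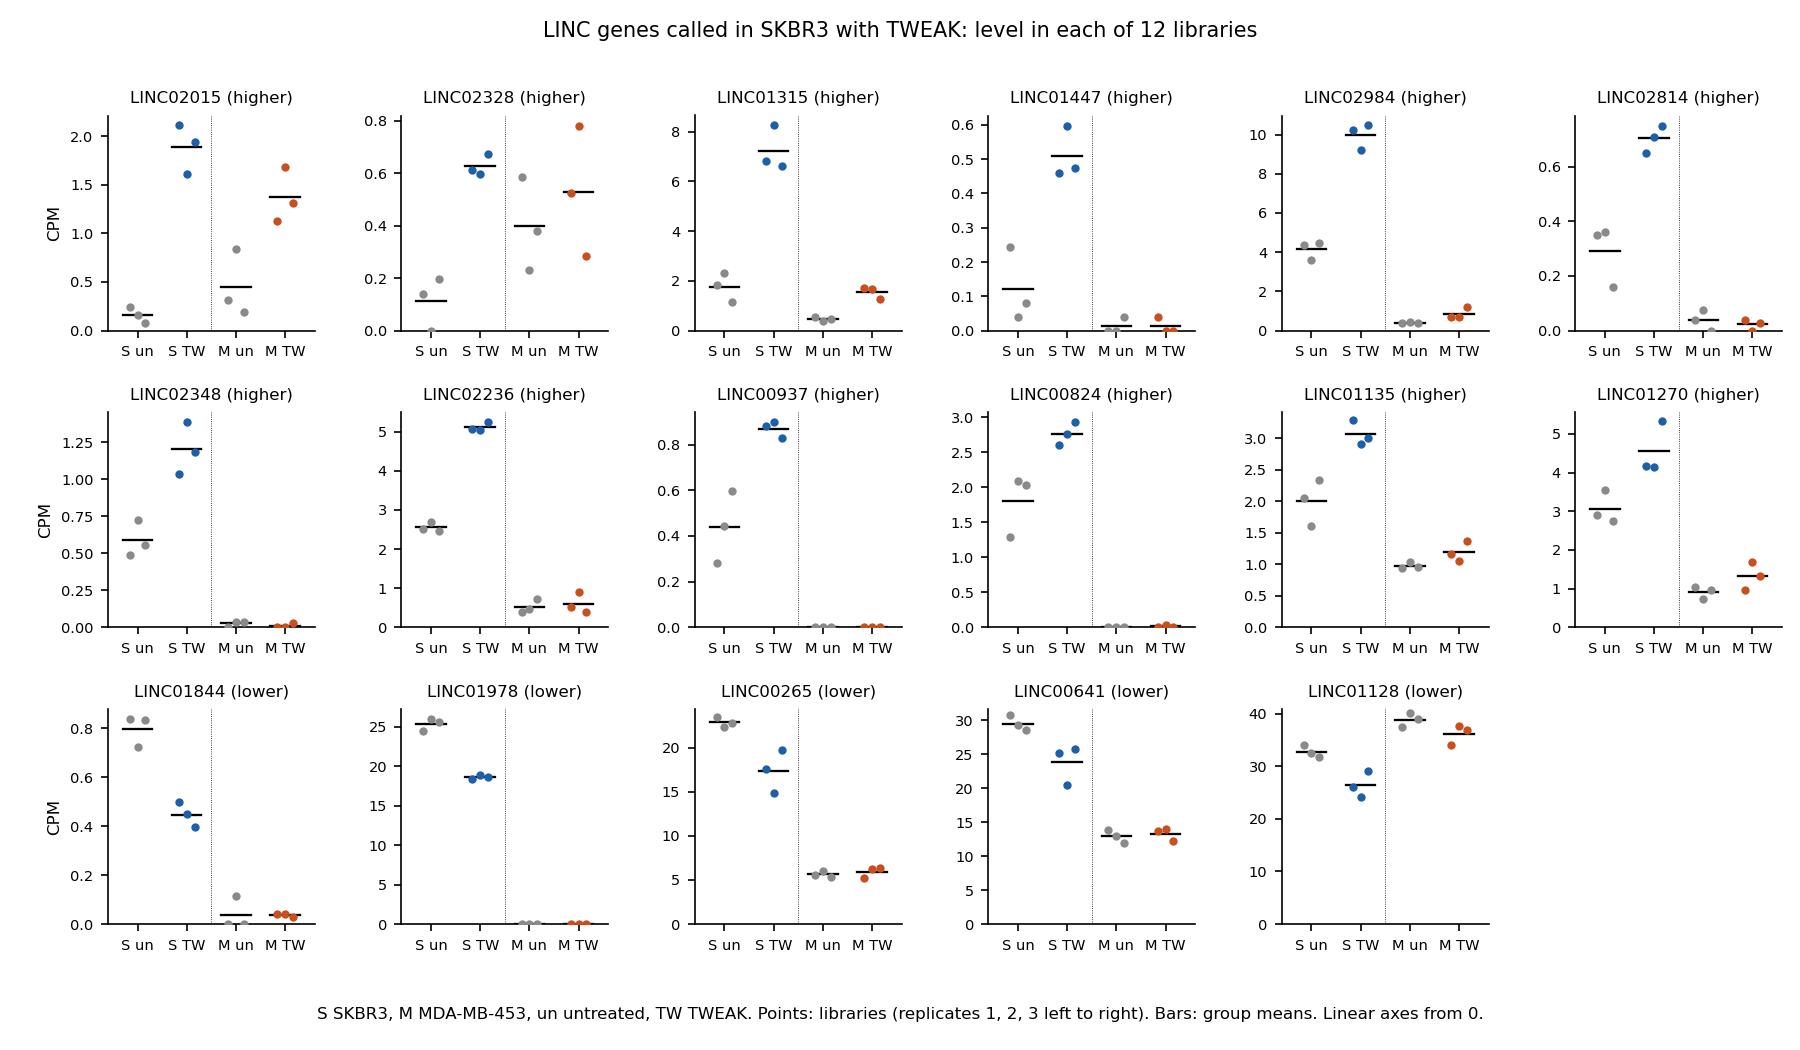
CPM of the 17 LINC genes called in SKBR3, in each of the 12 libraries, on linear axes from 0 (points are libraries, bars are group means; S is SKBR3, M is MDA-MB-453, un is untreated, TW is TWEAK). Within SKBR3 the groups do not overlap in any panel, and in MDA-MB-453 several genes, such as LINC00937 and LINC01978, lie at or near 0.

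Of the 5 genes that fell, 4 were at 10 CPM or more and changed by less than 0.5 on the log2 scale. LINC01978 lay at 24.4, 25.9 and 25.5 CPM untreated and 18.4, 18.8 and 18.6 CPM with TWEAK, 2 tight groups well apart. Its log2 fold change was -0.41 (SE 0.07, edgeR adjusted p = 0.00383). LINC00265 (chr7:39733430-39793092) lay at 23.5, 22.4 and 22.9 CPM and then at 17.6, 14.8 and 19.8 CPM (-0.36, SE 0.10, edgeR adjusted p = 0.0437). LINC00641 (chr14:21200079-21206900) lay at 30.8, 29.3 and 28.6 CPM and then at 25.2, 20.5 and 25.8 CPM (-0.28, SE 0.09, edgeR adjusted p = 0.0890). LINC01128 (chr1:825138-859446) lay at 34.1, 32.4 and 31.7 CPM and then at 26.1, 24.2 and 29.0 CPM (-0.27, SE 0.08, edgeR adjusted p = 0.0597). In LINC00265, LINC00641 and LINC01128 the lowest library was TWEAK replicate 2. On the opposite strand, the body of LINC01978 overlaps LINC01979 by 6709 bases and that of LINC01128 overlaps LINC00115 by 2402 bases. LINC01844 (chr5:142716229-142761035) went from 24, 18 and 21 counts to 13, 12 and 10 (-0.80, SE 0.26, edgeR adjusted p = 0.0984), and its call was lost without any 1 of the 6 libraries (adjusted p = 0.148 to 0.294), with DESeq2 (0.445), with no filter on low counts (0.181) and in a fit of all 12 libraries (0.133). The calls of LINC00265, LINC00641 and LINC01128 were lost without TWEAK replicate 1 or without any 1 untreated replicate (adjusted p = 0.108 to 0.314), and that of LINC00641 also with DESeq2 (0.106).

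Of the neighbours of the genes that fell, 2 fell, 1 rose and 2 did not pass, where 4.48% of all protein-coding genes tested in SKBR3 fell. RALA, a small GTPase gene 25310 bases from LINC00265, fell by 0.18 on the log2 scale (SE 0.06, edgeR adjusted p = 0.0845). SAMD11, the protein-coding gene nearest to LINC01128, fell by 0.34 (SE 0.08, edgeR adjusted p = 0.0232). ARHGAP26, which encodes a GTPase-activating protein, begins 9342 bases past LINC01844 on the same strand and went the other way, with a log2 fold change of 0.80 (SE 0.09, edgeR adjusted p = 0.000234). The call of RALA was lost without TWEAK replicate 1 or 3 or any 1 untreated replicate and with no filter on low counts, and that of SAMD11 without untreated replicate 2 or 3. HNRNPC and TBC1D16 did not pass (adjusted p = 0.646 and 0.291). Of 9 neighbours tested beside the genes that rose, 4 rose, namely TNS3, NFAM1, CEBPB and TENT4A, and none fell. At an unadjusted p under 0.05 in edgeR 4 were higher and none lower, and DESeq2 called 3 higher and none lower. Of all 12499 protein-coding genes tested in SKBR3, 7.58% rose. These neighbours were looked up from genes chosen by their change, so the count is given without a test.

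In MDA-MB-453, LINC01315 and LINC02015 rose and no other LINC gene was called. These 2 of 154 tested make 1.30%, against 1.49% of all 14929 genes, 1.29% higher and 0.208% lower. Both were under 0.5 CPM in untreated MDA-MB-453. Among the 135 LINC genes tested that reached 0.5 CPM untreated in this line, edgeR and DESeq2 called none. Without adjustment, edgeR gave p under 0.05 for 3 that were higher and 8 that were lower. None of the 154 fell by the edgeR test or by DESeq2. Before adjustment, p was under 0.05 for 6 with a positive and 8 with a negative change, 9.09% of the LINC genes against 10.5% of all genes tested. LINC01315 lay at 0.545, 0.382 and 0.457 CPM untreated and 1.70, 1.68 and 1.28 CPM with TWEAK, with no overlap. Its log2 fold change was 1.72 (SE 0.25, edgeR adjusted p = 0.00174). Groups did not overlap in 9 LINC genes that were higher and 13 that were lower, of 154, and in 8.37% and 6.63% of all genes tested in this line, 15.0% in all. NFAM1 rose as well, from 0.195, 0.115 and 0.114 CPM to 0.605, 0.547 and 0.483 CPM (1.90, SE 0.38, edgeR adjusted p = 0.0249), and its call was lost with DESeq2 and without untreated replicate 2 or 3. LINC02015 lay at 0.312, 0.841 and 0.190 CPM untreated and 1.13, 1.68 and 1.31 CPM with TWEAK. Untreated replicate 2 was well above the other 2, and the groups still did not overlap. Its log2 fold change was 1.60 (SE 0.36, edgeR adjusted p = 0.0536), and the call was lost without TWEAK replicate 3 (adjusted p = 0.163), untreated replicate 1 (0.239) or untreated replicate 3 (0.333). Without untreated replicate 2 the log2 fold change was 2.43. Without TWEAK replicate 2, which stood apart in this line, 4 LINC genes rose and 6 fell. Without TWEAK replicate 3 or untreated replicate 1 or 3, only LINC01315 remained.

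The other genes called in SKBR3 could be followed only in part. Of the 17, 7 were too low to be tested in MDA-MB-453. LINC02984 lay at 0.389, 0.421 and 0.381 CPM untreated and at 0.686, 0.703 and 1.19 CPM with TWEAK in MDA-MB-453, 3 values above all untreated ones, and it did not pass (log2 fold change 1.16, SE 0.31, edgeR adjusted p = 0.141). LINC02236 (0.16, SE 0.36), LINC02328 (0.34, SE 0.42), LINC01135 (0.31, SE 0.21) and LINC01270 (0.55, SE 0.25) did not pass either. LINC00265, LINC00641 and LINC01128 had log2 fold changes of 0.08, 0.03 and -0.10 there. Being called higher in both lines, as LINC01315 and LINC02015 were out of 105 LINC genes tested in both, was so for 0.890% of the 13489 genes tested in both, and 0.964% were called in the same direction, higher or lower. LINC02015 reached 0.5 CPM only with TWEAK in both lines, and LINC01315 only with TWEAK in MDA-MB-453, so these shares are a description.

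Whether the response to TWEAK differed between the lines was tested with an interaction term, fitted over the 12 libraries together. Of 255 LINC genes tested, LINC01311 alone was called by edgeR, against 3.37% of all 17201 genes (1.01% with a higher and 2.36% with a lower response in MDA-MB-453). Without adjustment, 6 had a higher and 10 a lower response there at p under 0.05, 6.27% of the LINC genes against 11.1% of all genes, and DESeq2 called 1, which was lower. LINC01311 (chr22:19171395-19172851, 1 exon) lay at 2.09, 1.81 and 1.94 CPM in untreated and 1.50, 1.42 and 1.46 CPM in TWEAK-treated SKBR3, and at 2.06, 1.53 and 1.94 CPM and then 2.46, 2.15 and 2.78 CPM in MDA-MB-453. All TWEAK-treated libraries lay below the untreated ones in SKBR3 and above them in MDA-MB-453, and neither change passed on its own (adjusted p = 0.229 and 0.376). The interaction was 0.81 on the log2 scale, MDA-MB-453 minus SKBR3 (SE 0.23, edgeR adjusted p = 0.0914). It was called under 6 of 20 alternatives. The gene lies 2730 bases from SLC25A1, the mitochondrial citrate carrier, and 15.1% of its exonic bases lie opposite another gene. For LINC02015 the interaction was -1.92 (SE 0.62, edgeR adjusted p = 0.153), and it passed under 6 of 19 alternatives, with adjusted p over all of them from 0.0165 to 0.637. Without untreated MDA-MB-453 replicate 2 it was -1.09. For LINC01315 it was -0.37 (SE 0.39, edgeR adjusted p = 0.823) and it passed under none. A p that misses the threshold does not show that the 2 lines responded alike.

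Long non-coding RNAs with names of their own were looked up from a list of 41, of which 40 were found and 30 tested in each line. In SKBR3, 6 rose and 1 fell by edgeR, against 6.60% and 3.82% of all genes, and DESeq2 called 5 and 1. In MDA-MB-453, 5 rose and none fell by edgeR, against 1.29% and 0.208% of all genes. DESeq2 called 3 and none there, and at an unadjusted p under 0.05 in edgeR 9 were higher and none lower. NKILA, known as an RNA that binds the NF-κB complex, rose in SKBR3 with a log2 fold change of 0.77 (SE 0.10, edgeR adjusted p = 0.000492) and stood at -0.14 in MDA-MB-453 (adjusted p = 0.751). Its interaction was called (-0.92, SE 0.17, adjusted p = 0.00468). H19, an imprinted transcript of fetal growth, fell in SKBR3 by 0.57 on the log2 scale (SE 0.08, edgeR adjusted p = 0.000724), from 1902 to 1249 CPM, and was under 0.5 CPM in MDA-MB-453. The 13 RNAs GAS5, ZFAS1 and those with an SNHG symbol are hosts of small nucleolar RNAs. In each line 5 of the 13 rose and none fell by edgeR, and their log2 fold changes ran from -0.15 to 0.43 in SKBR3 and from -0.01 to 0.31 in MDA-MB-453. DESeq2 called 3 higher and none lower in each line, and without adjustment edgeR gave p under 0.05 for 7 and 9 that were higher and for none that was lower. GAS5 rose by 0.29 in SKBR3 and 0.21 in MDA-MB-453, SNHG12 by 0.43 and 0.31, and SNHG1 by 0.21 and 0.18, all called in both lines. SNHG32 (0.38) and SNHG8 (0.30) rose in SKBR3, and SNHG15 (0.24) and ZFAS1 (0.21) rose in MDA-MB-453. All 5 calls in SKBR3 were lost without untreated replicate 1 or 2 (edgeR adjusted p = 0.132 to 0.274). All 5 in MDA-MB-453 were lost without TWEAK replicate 3 or untreated replicate 2 or 3 (0.127 to 0.446) and in a fit of all 12 libraries (0.159 to 0.327). With DESeq2, SNHG1 and SNHG32 lost theirs in SKBR3, and SNHG15 and ZFAS1 in MDA-MB-453. The abundant NEAT1, MALAT1 and NORAD did not pass in either line.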

How the data were processed

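RNA-seq counts per gene of 12 libraries, 3 untreated and 3 TWEAK-treated in each of SKBR3 and MDA-MB-453, were analysed. Per the labels and the study's methods, the authors trimmed adaptors with Trimmomatic, aligned the reads with STAR to hg38 and used featureCounts, and the deposited values are raw counts per gene. Versions, annotation release, strand setting and the handling of multimapping reads are not given in the sources used here. The methods name a directional RNA kit and the labels a DNA kit. Of the 62696 gene identifiers, 61918 matched GENCODE release 44 with their version and 62672 without it, and symbols, positions and overlaps came from that release. Promoters came from RefSeq (GRCh38.p14).

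Levels are CPM. Tests were edgeR 4.0.16 quasi-likelihood fits in R 4.3.3 on whole tables (filterByExpr, TMM, prior count 0.125), within each line for TWEAK and over all 12 libraries for the interaction and the untreated lines, with Benjamini-Hochberg adjustment over all genes tested and a threshold of 0.1. Each SE is the absolute log2 fold change divided by the square root of the quasi-likelihood F, so it is derived from the test. DESeq2 1.42.0 was an alternative. Other alternatives were size factors, GC and length offsets, filters, a replicate block and leaving out each library. The fits were tested on simulated data. Where nothing else says so, replicates are labelled samples, and p-values measure the spread between them.

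The LINC genes, the gene lists and the comparisons were chosen with earlier results of these data known. Named genes were LINC01315 and LINC02015, called genes at 0.5 CPM over the 6 libraries of a line with the 8 largest changes either way, genes called in both lines, the 5 highest genes of each line, interaction calls, the widest line differences, nearest protein-coding genes, and the 3 largest and 3 smallest changes of called RNAs on the list of named RNAs. Total counts per library bound the precision of low genes, as 1 count was 0.0284 to 0.0404 CPM.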

Additional observations from a re-analysis of the deposited data

Results flagged for a closer look

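The response of LINC01311 to TWEAK passed the test of a difference between the lines, with an interaction of 0.81 on the log2 scale (MDA-MB-453 minus SKBR3, SE 0.23, edgeR adjusted p = 0.0914). In 3 of 3 SKBR3 libraries with TWEAK it was lower than in every untreated one, and in 3 of 3 MDA-MB-453 libraries with TWEAK it was higher. Over 20 alternatives the adjusted p ran from 0.0505 to 0.273, and the call was lost in 14 of them, DESeq2, the replicate block and a threshold of 0.05 included.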

How the results depend on the processing

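Alternatives were run for the called LINC genes, their called neighbours, the called RNAs of the named list, the interactions of LINC01311, LINC01315, LINC02015 and NKILA, and the widest line differences, and none of these reversed its sign. LINC01315, LINC02015, LINC02328, LINC02984, LINC02236 and LINC01978 kept their calls in SKBR3 under every one that could be fitted. Over these genes, 867 values kept their side of the threshold, 144 lost a call and 6 gained one. Leaving out each library in turn gave 7 to 19 genes higher and 1 to 7 lower in SKBR3. In MDA-MB-453 it gave 1 to 4 higher and 0 to 6 lower, and 0 to 1 higher and 0 to 5 lower for the interaction. DESeq2 gave 3 lower in SKBR3, and 0 higher and 1 lower for the interaction. GC and length offsets gave 14 lower in SKBR3, and 2 higher and 1 lower for the interaction. A minimum of 10 counts in every library gave 7 higher in SKBR3, 1 higher in MDA-MB-453, and 34 higher and 17 lower between untreated lines, as fewer genes were tested. No filter gave 9 lower in SKBR3, 1 lower in MDA-MB-453 and 2 lower for the interaction. A threshold of 0.05 gave 2 lower in SKBR3, 1 higher in MDA-MB-453 and 0 for the interaction. Genes without shared exonic bases gave 7 higher and 3 lower in SKBR3, 0 for the interaction, and 84 higher and 41 lower between lines. Genes at 0.5 CPM untreated gave 7 higher in SKBR3 and 0 in MDA-MB-453. Where no construction is named, the cause was not tested.

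The libraries were not treated as paired, since the labels do not tie replicate numbers to a shared day and not every correlation was over 0.1. Correlations of deviations between same-numbered untreated and TWEAK-treated libraries were 0.115, -0.097 and -0.161 in SKBR3 against 0.086, 0.083 and 0.025 in MDA-MB-453, and every library correlated best with its own number in MDA-MB-453 but not in SKBR3. With the replicate block, the calls of LINC00937, LINC00641, LINC01128 and LINC01844 were lost in SKBR3 (adjusted p = 0.111 to 0.193), as were those of RALA, NFAM1, SNHG1 and SNHG8. With it, 2 genes were lower in SKBR3, 2 lower in MDA-MB-453 and 0 higher for the interaction, and with the replicate block and GC and length offsets together 12 were lower in SKBR3, 3 lower in MDA-MB-453, and 3 higher and 1 lower for the interaction.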
